A study of Rattus norvegicus with 6 samples.

Results

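Matrix proteases cut the collagens, laminins and junction proteins of the vessel wall, and their inhibitors set how far that goes. The genes described here were those of 10 members: the tissue inhibitors of metalloproteinases Timp1, Timp2 and Timp3, the metalloproteinases Mmp2, Mmp3, Mmp9 and Mmp14, the plasminogen activators Plat and Plau, and the urokinase receptor Plaur. All probe sets that the annotation of the RG_U34A array assigned to 1 of these symbols were taken, which gave 10 of 4737 named genes and 12 of the 8799 probe sets of the table, with 2 probe sets each for Timp1 and Mmp2. They were measured in RNA of brain capillaries from the stroke-prone spontaneously hypertensive rat (SHRSP), a strain with inherited hypertension and strokes, at an age of 6 weeks. There were 3 groups of 2 arrays. The ACEI group received lisinopril, an inhibitor of angiotensin-converting enzyme, at 6 mg/kg body weight a day, and the ARB group received olmesartan, a blocker of the angiotensin type 1 receptor, at 4 mg/kg a day by mouth. The control group received neither drug as far as its title tells. The labels also name 1% NaCl without saying which groups received it, and they give neither the length of treatment nor the number of rats behind an array. Whether the 2 arrays of a group held RNA of separate animals is thus not given, and the p-values below measure only the spread between these arrays.

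In a healthy brain capillary the endothelium releases Plat, the tissue plasminogen activator, into the blood, where it turns plasminogen into plasmin and so dissolves fibrin. Plasmin, and urokinase (Plau) held at the cell surface by its receptor Plaur, can also start a cascade in which latent metalloproteinases become active. Mmp14 sits in the cell membrane and activates the gelatinase Mmp2 together with Timp2. Mmp9, the other gelatinase, and Mmp3, stromelysin, are low in resting brain and are known for opening the blood-brain barrier in inflammation and stroke. Each TIMP protein blocks active metalloproteinases by binding their catalytic site, and Timp1 is the member known to be induced by cytokines.

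The promoters of 3 of the genes on which the values below turn are shown because AP-1 and Ets factors are the textbook regulators of inducible genes in this family. They are the 250 bases before the RefSeq start, on the build GRCr8, 5′ to 3′ on the gene's strand. Timp1 lies at chrX:3771123-3771372 (minus strand), Plaur at chr1:89181113-89181362 (plus strand) and Mmp3 at chr8:12925031-12925280 (plus strand). Capitals mark matches to the AP-1 motif TGANTCA, to its variant TGAGTAA and to the Ets (PEA3) motif AGGAAG, each searched on both strands.
Timp1: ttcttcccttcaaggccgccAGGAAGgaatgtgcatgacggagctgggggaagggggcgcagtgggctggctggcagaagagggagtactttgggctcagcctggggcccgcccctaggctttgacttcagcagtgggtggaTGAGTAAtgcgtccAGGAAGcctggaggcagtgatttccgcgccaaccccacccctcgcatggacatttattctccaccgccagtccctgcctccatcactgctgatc
Plaur: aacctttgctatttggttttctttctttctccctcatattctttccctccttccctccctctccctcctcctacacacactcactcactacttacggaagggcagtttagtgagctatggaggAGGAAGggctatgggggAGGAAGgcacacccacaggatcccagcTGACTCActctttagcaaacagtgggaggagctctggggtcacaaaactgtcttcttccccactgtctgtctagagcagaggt
Mmp3: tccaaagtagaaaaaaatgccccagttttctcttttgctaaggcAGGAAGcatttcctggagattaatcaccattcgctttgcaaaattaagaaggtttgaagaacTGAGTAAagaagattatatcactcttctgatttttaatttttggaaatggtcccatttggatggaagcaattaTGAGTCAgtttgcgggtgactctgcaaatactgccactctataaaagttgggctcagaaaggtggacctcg
Of the 10 members, 6 had a promoter in the sequence table: Timp1, Timp2, Timp3, Mmp3, Plau and Plaur. The motif TGANTCA was found in the promoters of Plaur and Mmp3, and in 6.34% of all 33469 promoters of that length. TGAGTAA was found in Timp1 and Mmp3 and in 2.38% of all promoters, and AGGAAG in Timp1, Plaur and Mmp3 and in 29.5% of all. In the Timp1 promoter the TGAGTAA match ended 102 bases before the start and an AGGAAG match began 94 bases before it. The promoters of Timp2, Timp3 and Plau held none of these 3 motifs, but 1, 3 and 3 matches to the GC box GGGCGG, which 30.5% of all promoters held. No match overlapped another. A match describes the letters only.

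The arrays were not equally alike. For Gapdh, the signal at the 3′ end divided by that at the 5′ end, a quantity that goes up with RNA breakdown or short copies, came to 7.31 for control 2 and to between 0.933 and 1.59 for the other 5 arrays. The 19 control probe sets for foreign transcripts, a measure of signal without target, had a median of 106 and 80.9 on ARB 1 and ARB 2 against 13.1 to 28.6 on the other 4. More than 2-fold differences within a pair were seen for 34.5% of tested probe sets in the controls, 17.8% in ACEI and 15.2% in ARB. Control 1 and ACEI 1 were hybridized in an earlier year, and on another chip lot, than the other 4 arrays. Run day stands below for this split by year, and arrays counted to the same run day need not share a calendar day. As a check of the tissue, 10 of 14 brain endothelial markers were named on the array, all 10 lay above the filter on low values and none was at 0, with a summed intensity of 63330 to 149000 per array. Cldn5, Cdh5, Tek and Tie1 were not among the named probe sets. The endothelial junction gene Pecam1 was at 5538 on control 1 and 194 on control 2.

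The members were compared in 4 contrasts by a linear model (limma) over all 5244 probe sets above the filter, which left out the 40% with the lowest mean. Values are differences of log2 of the intensity plus an offset of 90, so that -1 stands for a factor of 2 on that scale, and the fold of a dim probe set is understated. Of the 12 probe sets, 10 passed the filter and those of Mmp3 and Mmp9 did not. ACEI and ARB were compared with the same 2 control arrays, so their differences from control are not independent of each other. RAS blockade stands for the mean of both drugs. In limma no probe set of any gene passed an adjusted p of 0.05 in any contrast (0 of 5244, a background of 0%), and so none of the members did. All values below are to be read as differences that did not pass this test.

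Timp1 was lower on the arrays of both drugs, and its second probe set had the largest RAS blockade difference of the 10 member probe sets above the filter. Without control 2 that rank was lost, with -1.22 for this probe set against -1.88 for Plaur and -1.40 for Timp3. The leading Timp1 probe set (rc_AI169327_at) read 1917 and 6625 in the controls, 1138 and 712 under ACEI, and 2407 and 534 under ARB, as intensities. ARB 1 lay above control 1, so the treated and control arrays overlapped, while both ACEI arrays lay below both controls. The other Timp1 probe set (rc_AI169327_g_at), designed from the same expressed sequence tag, had 528 and 4431 on the controls, 97.7 and 144 with ACEI and 130 and 421 with ARB. Here all 4 treated arrays lay below both controls. On ACEI 1 and both ARB arrays this probe set also lay below the highest foreign control (168, 545 and 523), so no fold is given for it. Because the measurement is on bulk RNA, fewer cells of a type and less RNA per cell cannot be told apart.

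For RAS blockade the log2 difference of Timp1 was -1.72 ± 0.69 (SE, 2 control and 4 treated arrays), or 3.30-fold lower, with an adjusted p of 0.863 in limma. The other probe set was at -2.66 ± 0.76, with an adjusted p of 0.863 in limma. For ACEI these were -1.89 ± 0.79 and -2.995 ± 0.88, and for ARB -1.56 ± 0.79 and -2.32 ± 0.88. ARB and ACEI differed from each other by 0.33 ± 0.79 and 0.68 ± 0.88, with 95% intervals from -1.47 to 2.14 and from -1.32 to 2.67, so the level order of both drugs was not resolved.

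The size of the Timp1 difference rested on control 2, the array with the high Gapdh ratio. Without control 2 the difference for RAS blockade was -0.85 for the leading probe set and -1.22 for the other. Without control 1 it was -2.59 and -4.09, and the second of these had an adjusted p of 0.0312 in limma, as had -4.43 for ACEI at 0.0202. In these 2 fits the lone control array is assumed to vary like the arrays of the other groups. Within the earlier run day ACEI 1 minus control 1 was -0.71 and -1.72. Within the later day ACEI 2 minus control 2 was -3.07 and -4.27, and the ARB mean minus control 2 was -2.43 and -3.75. The sign was thus the same on each day and without either control.

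Summed markers of 2 other kinds of cells were lower on the treated arrays as well, though not marker by marker. The neuron sum instead was higher, with 1677 and 3272 on the controls and 4931 to 7174 on the treated arrays. The astrocyte and oligodendrocyte sums were higher than on both controls with ACEI and lower with ARB. Of 10 pericyte and smooth muscle markers 9 were named, with a summed intensity of 30980 and 36580 on the controls, 17030 and 14020 with ACEI and 17510 and 20600 with ARB, and none was at 0. The contractile genes Acta2 and Tagln made up most of the sum. All 4 treated arrays lay below both controls for 2 of the 9, while Anpep was at 389 and 863 on the controls and 1759 and 1902 with ARB. Of 8 neutrophil markers 4 were named (S100a8, S100a9, Padi4 and Cxcr2), with sums of 8241 and 8928 on the controls, 2421 and 4834 with ACEI, and 1768 and 1401 with ARB. For 3 of the 4 all treated arrays lay below both controls, and Cxcr2 was higher with ARB (522 and 227 against 166 and 142). On ARB 1 all 4, and on ARB 2 all but S100a9, lay below the highest foreign control (545 and 523). The muscle and pericyte sum and the neutrophil sum were each close on the 2 controls, where Timp1 read 1917 and 6625. The endothelial sum (67550 and 149000 on the controls) and the erythroid sum (50120 and 163600) were, like Timp1, highest on control 2. On the treated arrays they were 63330 to 77180 and 48500 to 67740. Slc2a1 and Slco1a4 made up most of the first, and Hbb and Hbb-b1 most of the second. Pecam1, Alas2 and Slc4a1 were instead lower on control 2 than on control 1. The part of these cells in the Timp1 difference was not tested.

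Timp2, the inhibitor that also helps Mmp14 to activate Mmp2, differed little between arrays. Its intensity was 6547 and 7942 on the controls, 7794 and 7510 with ACEI, and 8946 and 7399 with ARB. The groups overlapped, and the log2 difference was 0.13 ± 0.38 for RAS blockade, with a 95% interval from -0.75 to 1.01. For ACEI it was 0.08 ± 0.44 and for ARB 0.17 ± 0.44.

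Timp3, the inhibitor that stays bound to the matrix, was set apart by its spread between the controls. It had 2873 on control 1 and 267 on control 2, 2064 and 860 with ACEI, and 911 and 697 with ARB, so all treated arrays lay between both controls. The difference was 0.13 ± 0.79 for RAS blockade, and -1.40 without control 2 against 1.66 without control 1. Its sign depended on which control was used, and its low control was the array with the Gapdh ratio of 7.31.

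**Figure D1:**
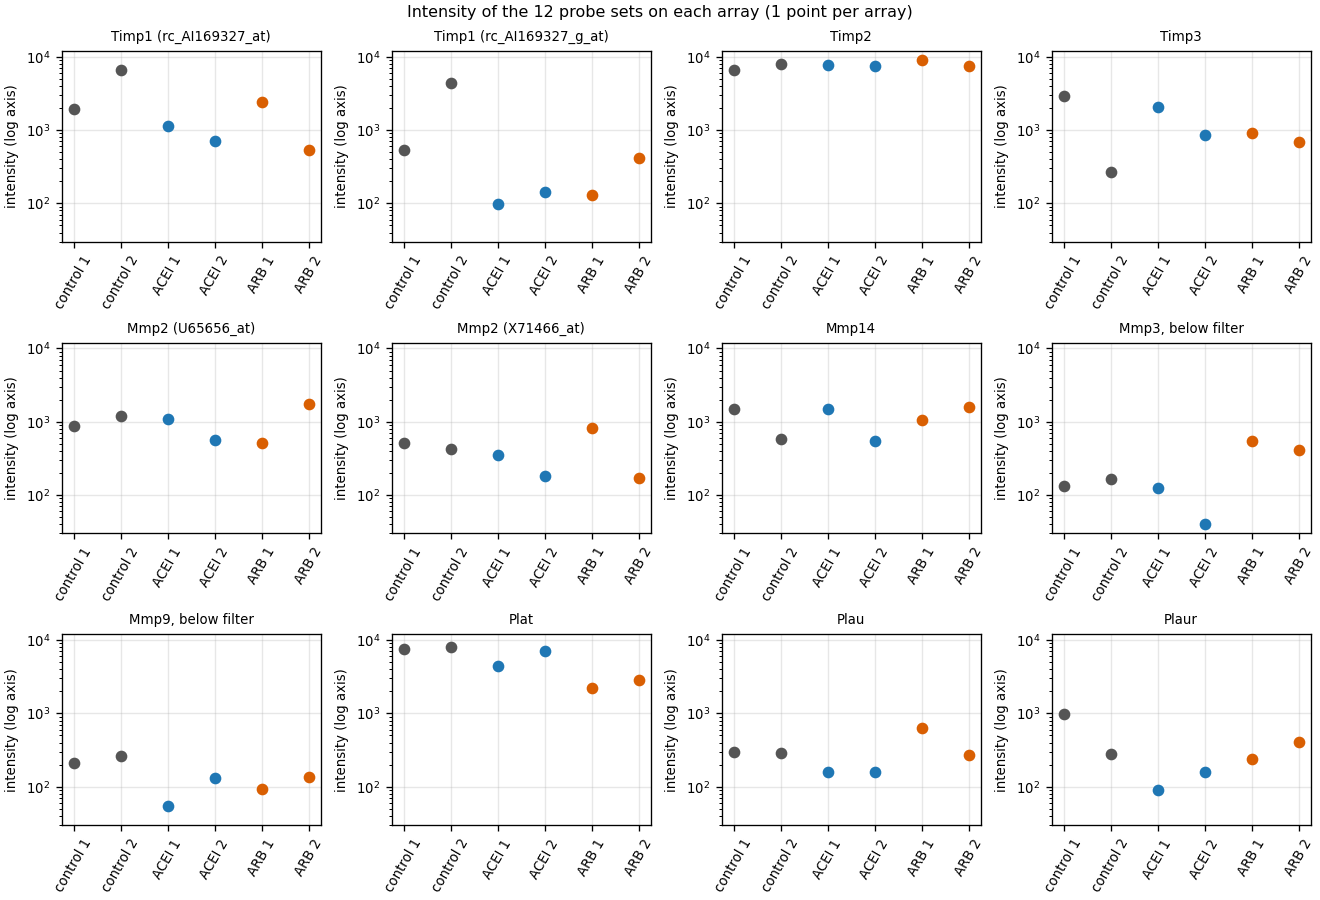
Intensity (log axis) of the 12 probe sets on each of the 6 arrays, 1 point per array, with controls in grey, ACEI in blue and ARB in orange. Plat on the ARB arrays (2226 and 2856) lies below all other arrays, Timp2 lies between 6547 and 8946 throughout, and the Timp1 points of control 2 are the highest of their panels.

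Plat, the tissue plasminogen activator of the endothelium, was lowest on the ARB arrays. Its intensity was 7520 and 8056 on the controls, 4503 and 7170 with ACEI, and 2226 and 2856 with ARB. All 4 treated arrays lay below both controls, and both ARB arrays lay below both ACEI arrays, as they did for 25.3% of all tested probe sets. The order of the levels was control, ACEI, ARB. Control and ACEI did not differ beyond their spread, as ACEI 2 was close to the controls.

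The log2 difference of Plat for ARB was -1.59 ± 0.47, or 3.01-fold lower (2 arrays per group), with a 95% interval from -2.67 to -0.52 and an adjusted p of 0.207 in limma. For ACEI it was -0.45 ± 0.47 with an interval from -1.52 to 0.63, and for RAS blockade -1.02 ± 0.41. ARB minus ACEI was -1.15 ± 0.47, with an unadjusted p of 0.0393 and an adjusted p of 0.201 in limma. Unlike Timp1, Plat had nearly equal controls, so that the ARB difference was -1.64 without control 1 and -1.54 without control 2, and it lay between -1.78 and -1.24 under all 15 alternatives.

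The ARB arrays stood apart for many genes, and Plat has to be read against that. For ARB versus control 17.3% of all tested probe sets had an unadjusted p under 0.05, where 4.69% were lower and 12.6% higher. The ARB arrays lay below both controls for 16.8% of tested probe sets and above both for 33.4%. Of the 10 members above the filter 2 were lower at that p, the Plat probe set and the second one of Timp1. Of 10 endothelial markers 6 (Pecam1, Flt1, Abcb1a, Tfrc, Nos3 and Icam2) lay lower on both ARB arrays than on both ACEI arrays, and 1, Slco1a4, higher. Pecam1 had 553 and 317 with ARB against 2728 and 5564 with ACEI, and Icam2 had 208 and 257 against 894 and 1253. Icam2 on both ARB arrays, and Pecam1 and Flt1 on ARB 2, lay below the highest foreign control (545 and 523). The summed intensity of the list, 63330 and 73460 with ARB and 71460 and 77180 with ACEI, was made up mostly of the transporters Slc2a1 and Slco1a4. Against the controls, the ARB arrays lay below both for 1 of the 10, Icam2, and above both for 1, Kdr. This count depends on control 2, the array with the Gapdh ratio of 7.31. For Pecam1, Abcb1a, Tfrc and Nos3 both ARB arrays lay above control 2 and below control 1. Nos3, as an example, had 2068 and 262 on the controls, and 629 and 600 with ARB. Slc2a1 and Slco1a4 were instead highest on control 2. The part of the endothelial share of the RNA in the Plat difference was not tested.

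Plau, urokinase, was at its lowest on the ACEI arrays. It had 296 and 285 on the controls, 161 and 159 with ACEI, and 623 and 274 with ARB. Both ACEI arrays lay below both controls, and the ARB arrays lay on either side of them. Plau was below the highest foreign control on ACEI 1 and ARB 2. The difference was -0.61 ± 0.49 for ACEI and 0.42 ± 0.49 for ARB, and ARB minus ACEI was 1.03 ± 0.49 with an adjusted p of 0.257 in limma. For ARB the sign depended on the scaling, with -0.18 after quantile and -0.23 after cyclic loess normalization.

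Plaur, the receptor that holds urokinase on the surface of leukocytes and activated endothelium, had 990 and 282 on the controls, 90.9 and 157 with ACEI, and 240 and 413 with ARB. Both ACEI arrays lay below both controls, and ARB 2 lay between the controls. On ACEI 1 and both ARB arrays Plaur was below the highest foreign control. The difference was -1.58 ± 0.60 for ACEI (adjusted p = 0.992 in limma), -0.64 ± 0.60 for ARB and -1.11 ± 0.52 for RAS blockade. Here control 1 was the high array, so the ACEI difference was -0.82 without control 1 and -2.35 without control 2, the opposite of Timp1. It was -2.58 within the earlier run day and -0.59 within the later one. For ARB the difference within the later day was 0.13.

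The neutrophil sums given for Timp1 were, like Plaur, below both controls on both ACEI arrays. They were lowest with ARB and close on the controls, where Plaur read 990 and 282. Of 11 microglia and macrophage markers 9 were named, with sums of 35340 and 31920 on the controls, 17200 and 37110 with ACEI, and 11470 and 12550 with ARB. C1qb and Lyz2 made up most of these sums. The ARB arrays lay below both controls for 4 of the 9 and above both for 2, Ptprc and Csf1r. Csf1r on ARB 1, and Aif1 and Lgals3 on both ARB arrays, lay below the highest foreign control (545 and 523). The part of neutrophils, microglia and macrophages in the Plaur difference was not tested.

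**Figure D2:**
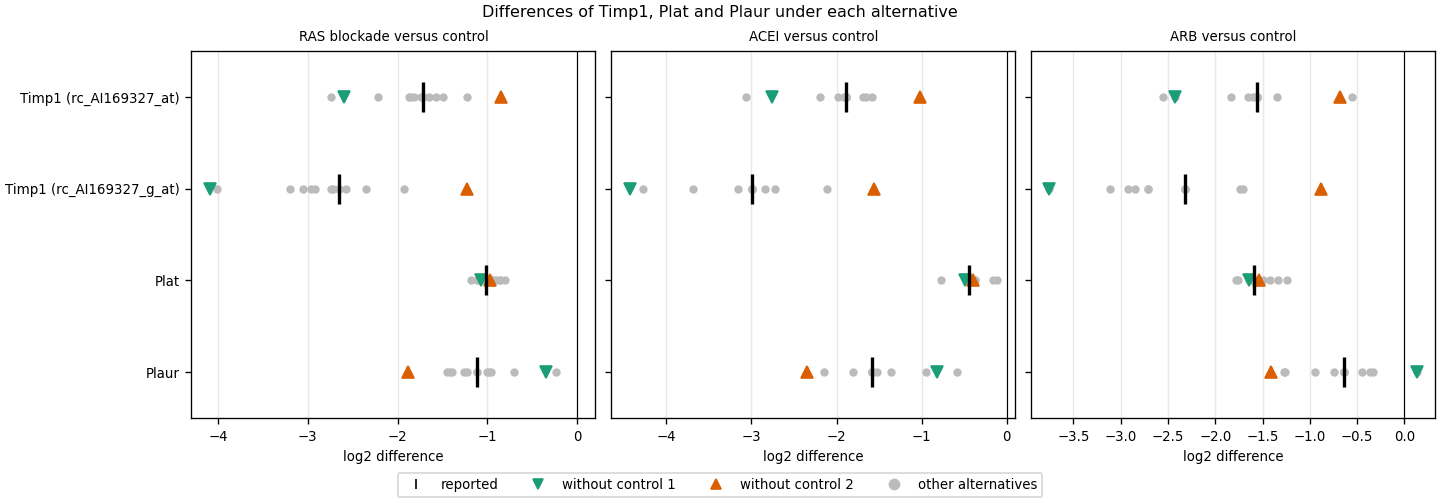
Log2 differences (x axis) of Timp1 (2 probe sets), Plat and Plaur in the 3 contrasts against control. The black bar is the reported value, the triangles the fits without control 1 (green, down) or control 2 (orange, up), and the grey points the other alternatives. The triangles lie together for Plat and far apart for Timp1 and Plaur, in opposite order.

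The metalloproteinases differed among themselves. Mmp14, the membrane-bound activator, had 1494 and 590 on the controls, 1482 and 550 with ACEI, and 1058 and 1568 with ARB. The controls and ACEI arrays repeated the same pair of levels by replicate number, and the ACEI difference was -0.05 ± 0.63 (95% interval from -1.48 to 1.38). For ARB it was 0.41 ± 0.63, and with run day as a block 1.04 ± 0.48 (adjusted p = 0.255 in limma). Within the later day it was 1.02.

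The 2 probe sets of Mmp2, gelatinase A of the basement membrane, did not follow each other. The leading one (U65656_at) had 865 and 1185 on the controls, 1095 and 563 with ACEI, and 520 and 1750 with ARB. The other (X71466_at) had 519 and 430, then 351 and 183, then 835 and 171. The leading one was below the highest foreign control on ARB 1, and the other on ARB 2. ARB 1 was thus the lowest array for the leading probe set and the highest for the other, and over the 6 arrays, which share the same libraries, their log2 values had a Pearson correlation of -0.448. For RAS blockade the differences were -0.19 ± 0.54 and -0.45 ± 0.56, and limma gave adjusted p-values of 0.957 and 0.905. The 95% intervals ran from -1.43 to 1.04 and from -1.72 to 0.83. The pair of Timp1 probe sets had a correlation of 0.701.

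**Figure D3:**
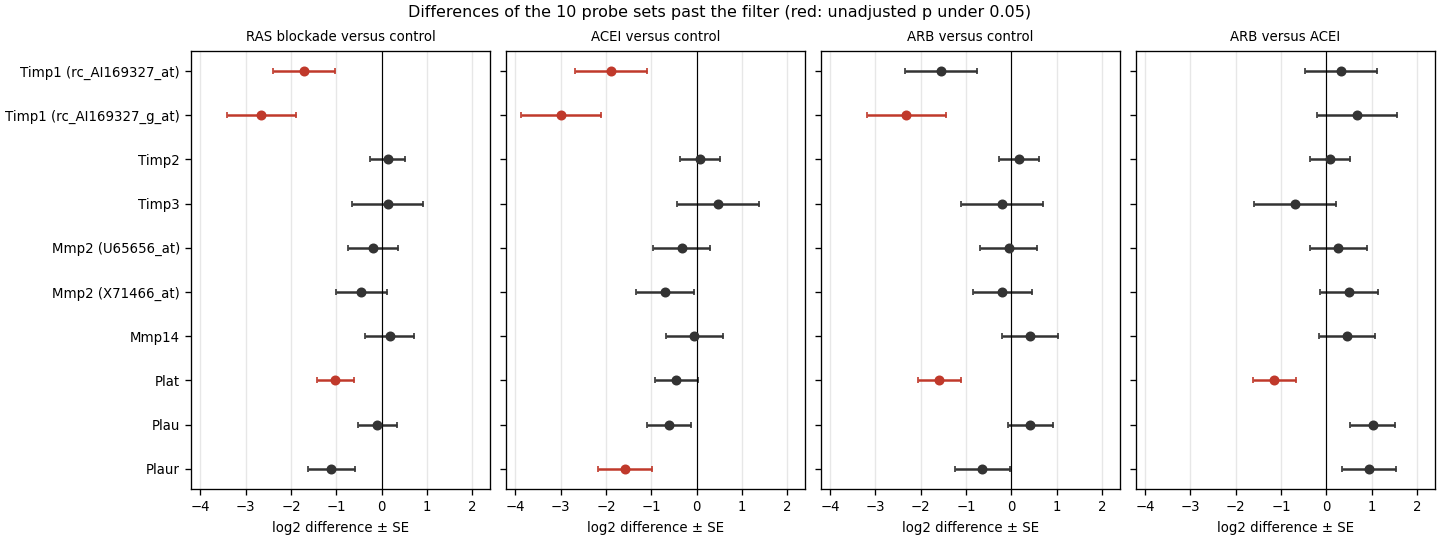
Log2 difference ± SE (x axis) of the 10 probe sets above the filter in each of the 4 contrasts, with 2 arrays per group. Red marks an unadjusted p under 0.05: both Timp1 probe sets and Plat for RAS blockade, both Timp1 probe sets and Plaur for ACEI, Plat and 1 Timp1 probe set for ARB, and Plat between the drugs.

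Mmp3 and Mmp9, the inducible metalloproteinases, lay below the filter, and their values are given beside the foreign-transcript controls. Mmp9 had 210 and 263 on the controls, 54.3 and 132 with ACEI, and 94.1 and 134 with ARB. All treated arrays lay below both controls. The highest of the 19 foreign controls was at 129 and 68.7 on the control arrays, 168 and 61.1 with ACEI, and 545 and 523 with ARB. Mmp9 was therefore above every foreign control on both control arrays and on ACEI 2, and below the highest of them on ACEI 1 and both ARB arrays.

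Mmp3 had 134 and 167 on the controls, 126 and 40.5 with ACEI, and 549 and 416 with ARB. Every ACEI array lay below both controls and every ARB array above both. On ACEI 1 and ACEI 2 Mmp3 also lay below the highest foreign control (168 and 61.1). In the fit with no filter the ACEI difference was -0.52 ± 0.41. In the fit with no filter the ARB difference was 1.24 ± 0.41 (adjusted p = 0.180 in limma) and ARB minus ACEI was 1.76 ± 0.41 (adjusted p = 0.107). Without the filter the ARB arrays lay above both controls for 43.9% of all 8740 probe sets, and above both ACEI arrays for 46.9%. On ARB 1 Mmp3 was 549 against 545 for the highest foreign control, and on ARB 2 it was 416 against 523, so the signal of probe sets without target was high on the same arrays as Mmp3. Its part in the Mmp3 difference was not tested.

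**Figure D4:**
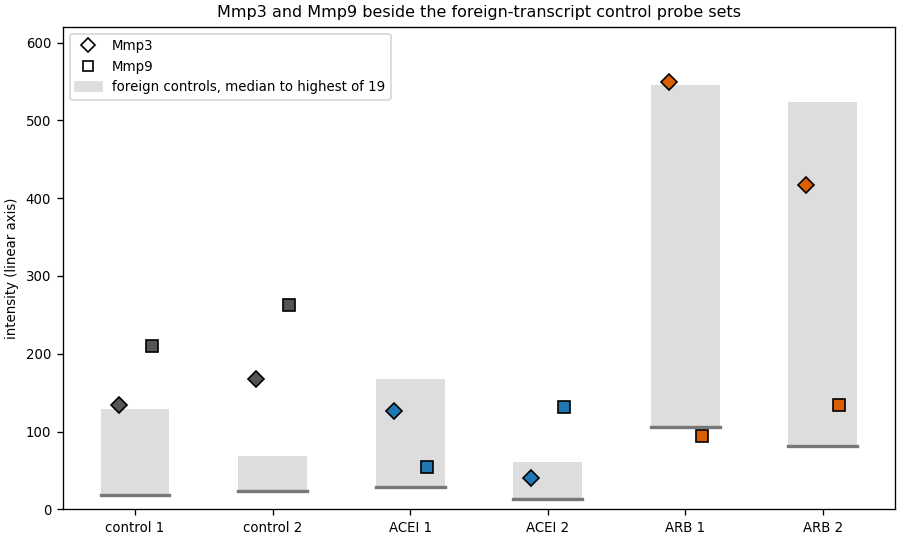
Intensity (linear axis) of Mmp3 (diamonds) and Mmp9 (squares) on each array, beside the range from the median to the highest of 19 control probe sets for foreign transcripts (grey). On the ARB arrays the grey range reaches 545 and 523 and holds or nearly holds the Mmp3 values of 549 and 416.

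The members' counts are given here beside those of all probe sets. For ACEI 3 of 10 had an unadjusted p under 0.05, all lower (both Timp1 probe sets and Plaur), where 2.59% of all tested probe sets had such a p (1.39% lower and 1.2% higher). For RAS blockade 3 of 10 did (both Timp1 probe sets and Plat), all lower, against 5.07% (2.02% lower and 3.05% higher). For ARB versus ACEI 1 of 10 did (Plat, lower), against 22.3% (6.71% lower and 15.6% higher). Since 2 of the probe sets measure Timp1, these are 2 genes in the first 2 contrasts. Over all 12 probe sets in the fit with no filter, 10 were lower and 2 higher with ACEI, with a median difference of -0.56 beside -0.03 over all probe sets. With ARB 8 were lower and 4 higher, with a median of -0.21 beside 0.43. ACEI lay below both controls for 8 of the 12 probe sets, against 12.9% of all, and these were both of Timp1, the second of Mmp2, and those of Mmp3, Mmp9, Plat, Plau and Plaur. Of these, the second of Timp1, Mmp3, Mmp9, Plau and Plaur lay below the highest foreign control on ACEI 1. Mmp3 did so on ACEI 2 too. ARB lay below both controls for 3 of the 12 (the second Timp1 probe set, Mmp9 and Plat), against 11.1% of all, and above both for 1, Mmp3. The 4 treated arrays lay below both controls for the same 3 probe sets, against 2.64% of all. Among them, the second Timp1 probe set and Mmp9 lay below the highest foreign control on both ARB arrays. The median of all tested probe sets was 0.13 for RAS blockade, -0.04 for ACEI and 0.18 for ARB. After quantile normalization the RAS blockade median was -0.03, and after cyclic loess normalization 0.01. The Timp1, Plat and Plaur differences of RAS blockade kept their sign under both.

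The genes with the most similar pattern over the 6 arrays were listed for the leading probe sets of Plat and Timp1 by Pearson correlation of log2 values. These are descriptions over points that share libraries, and a shared pattern follows from picking the genes by likeness. For Plat the highest was Anxa2 (r = 0.996), the annexin that binds plasminogen and tissue plasminogen activator on the endothelial surface. Anxa2 had 6057 and 5974 on the controls, 4560 and 5947 with ACEI and 3305 and 3820 with ARB, so that it shared the high ACEI 2 and the low ARB arrays of Plat. The next were the tyrosine kinase Syk (0.990), the hexokinase Hk2 (0.989), the small GTPase Rab11b (0.986) and the lipid droplet protein Plin2 (0.985). The difference of Anxa2 for ARB was -0.74 and for RAS blockade -0.47 ± 0.39. S100a10, the partner that forms the plasminogen-binding complex with Anxa2, was at -0.59 ± 0.52 for RAS blockade.

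For Timp1 the most similar were Ndufaf3 (0.985), an assembly factor of respiratory complex I, the prostaglandin transporter Slco2a1 (0.976), the thioredoxin reductase Txnrd1 (0.958), the clock output gene Dbp (0.957) and the blood group gene Rhd (0.947). Slco2a1 had 589 and 2881 on the controls, 222 and 116 with ACEI, and 567 and 150 with ARB. All 5 were highest on control 2, as was the Timp1 probe set by which they were picked.

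Of 93 other genes of matrix proteolysis in 6 lists, 55 were named on the array and 38 lay above the filter. None had an adjusted p under 0.05 in limma. At the unadjusted p under 0.05, taking 1 leading probe set per gene, 2 genes were lower and none higher for RAS blockade, none in either direction for ACEI, and 4 lower and 4 higher for ARB. These are 5.26%, 0% and 21.1% of the 38 genes, beside 5.07%, 2.59% and 17.3% of all tested probe sets, so the ARB and RAS blockade shares were near the background. For ARB versus ACEI 2 were lower and 5 higher, or 18.4% of the 38 genes beside 22.3% of all tested probe sets.

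Of the plasminogen system 10 of 24 listed genes lay above the filter and no leading probe set had an unadjusted p under 0.05 against control. For RAS blockade 5 were lower and 5 higher, with a median of -0.07. The protease inhibitor Serpina1 had a difference of -0.85 ± 0.42, and Serpine2, the protease nexin that blocks urokinase and thrombin, one of 0.81 ± 0.43. A second Serpina1 probe set gave -0.59 ± 0.42. For ARB this second probe set gave -1.82 ± 0.48, with an unadjusted p of 0.0049 and an adjusted p of 0.201 in limma. Its ARB intensities of 88.9 and 72.4 lay below the highest foreign control (545 and 523). Thbd, thrombomodulin, which turns thrombin to an anticoagulant on endothelium, was higher with ARB than with ACEI by 1.21 ± 0.48 (3450 and 2584 against 1650 and 921).

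Of 6 regulators of metalloproteinases 5 were lower and 1 higher for RAS blockade, with a median of -0.38 and none at an unadjusted p under 0.05; after quantile or cyclic loess normalization 4 were lower and 2 higher. A2m, the wide-range protease inhibitor of plasma, was at -0.88 ± 0.54, with 13440 on control 2 against 3254 to 5899 on the other 5 arrays. Its other 3 probe sets lay the other way, at 0.56 to 0.84 for RAS blockade, so no direction is given for A2m. Lcn2, which binds Mmp9 in a complex, had 1090 and 858 on the controls, 764 and 779 with ACEI, and 485 and 369 with ARB. Its difference for ARB was -1.04 ± 0.45, but both ARB values lay below the highest foreign control (545 and 523). Furin, the convertase that activates Mmp14, was at -0.57 and Bsg, the inducer of metalloproteinases on brain endothelium, at 0.46 for RAS blockade.

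Among the other metalloproteinases Mmp7, matrilysin, had 225 and 151 on the controls, 326 and 134 with ACEI, and 990 and 660 with ARB, a difference of 1.71 ± 0.51 for ARB. It lay above the highest foreign control on both ARB arrays. Mmp11, stromelysin-3, was at 0.01 for RAS blockade. The membrane sheddases Adam17 and Adam10 were at 1.02 ± 0.77 and 0.85 ± 0.62, and Adam17 was at 39.2 on control 2 against 193 to 872 on the others.

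Cathepsins and cystatins, the lysosomal proteases and their inhibitors, were mostly at lower values on the ARB arrays. Of 10 genes 9 were lower and 1 higher with ARB (median -0.74, beside 0.18 over all tested probe sets), with 9 lower after quantile and 8 after cyclic loess normalization. For RAS blockade 7 were lower (median -0.24), and 6 after either normalization. The microglia and macrophage sums given for Plaur were also lowest with ARB (11470 and 12550 against 35340 and 31920 on the controls). Of those 9 markers 4 lay below both controls on the ARB arrays and 2 above both. The part of these cells in the cathepsin and cystatin differences was not tested. Cstb, an inhibitor of cathepsins in the cytosol, had 11240 and 30600 on the controls, 7541 and 13110 with ACEI, and 4798 and 4225 with ARB, a difference of -2.02 ± 0.59. Cathepsins L, E and K (Ctsl, Ctse and Ctsk) were at -1.27 ± 0.47, -1.03 ± 0.62 and -0.71 ± 0.51 for ARB. Ctse on both ARB arrays and Ctsk on ARB 2 lay below the highest foreign control. Cst3, the secreted cystatin C, was the gene that was higher, with 27430 and 54460 on the controls, 34630 and 37730 with ACEI, and 92080 and 89100 with ARB, a difference of 1.23 ± 0.50 (other probe set 2.92 ± 0.64). Between the drugs, cathepsin C (Ctsc) and cathepsin D (Ctsd) were at -1.92 ± 0.62 and -1.48 ± 0.58 for ARB minus ACEI, while the other Ctsc probe set was at -0.31 ± 0.52.

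Of 8 substrates in basement membrane and junctions, 5 were lower and 3 higher with ARB (median -0.34), against 4 and 4 after quantile normalization (0.02) and 3 and 5 after cyclic loess normalization (0.03). Fn1, fibronectin, had 12550 and 21120 on the controls and 6500 to 9527 under both drugs. The RAS blockade difference was -1.14 ± 0.42, but -0.02 and 0.17 for the remaining pair of Fn1 probe sets. The laminin chain Lama1 and the collagen chain Col4a3 were higher with ARB, by 1.59 ± 0.47 and 1.08 ± 0.46. The ARB arrays lay above both controls for 33.4% of tested probe sets. Col4a3 read 594 and 631 there, close to the highest foreign control (545 and 523). The tight junction gene Tjp1 was at -0.68 ± 0.40 and the laminin chain Lamc1 at 0.70 ± 0.54 for RAS blockade. Of 8 markers of choroid plexus and leptomeninges 7 were named. Their summed intensity was 254900 and 254100 on the ARB arrays against 65750 to 143100 on the others. Most of the ARB sum was Ttr (202400 and 201500). The ARB arrays lay above both controls for 3 of the 7 markers, Ttr, Igfbp2 and Ptgds, and below both for the other 4. The part of these cells in the differences of Cst3, Lama1 and Col4a3 was not tested.

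**Figure D5:**
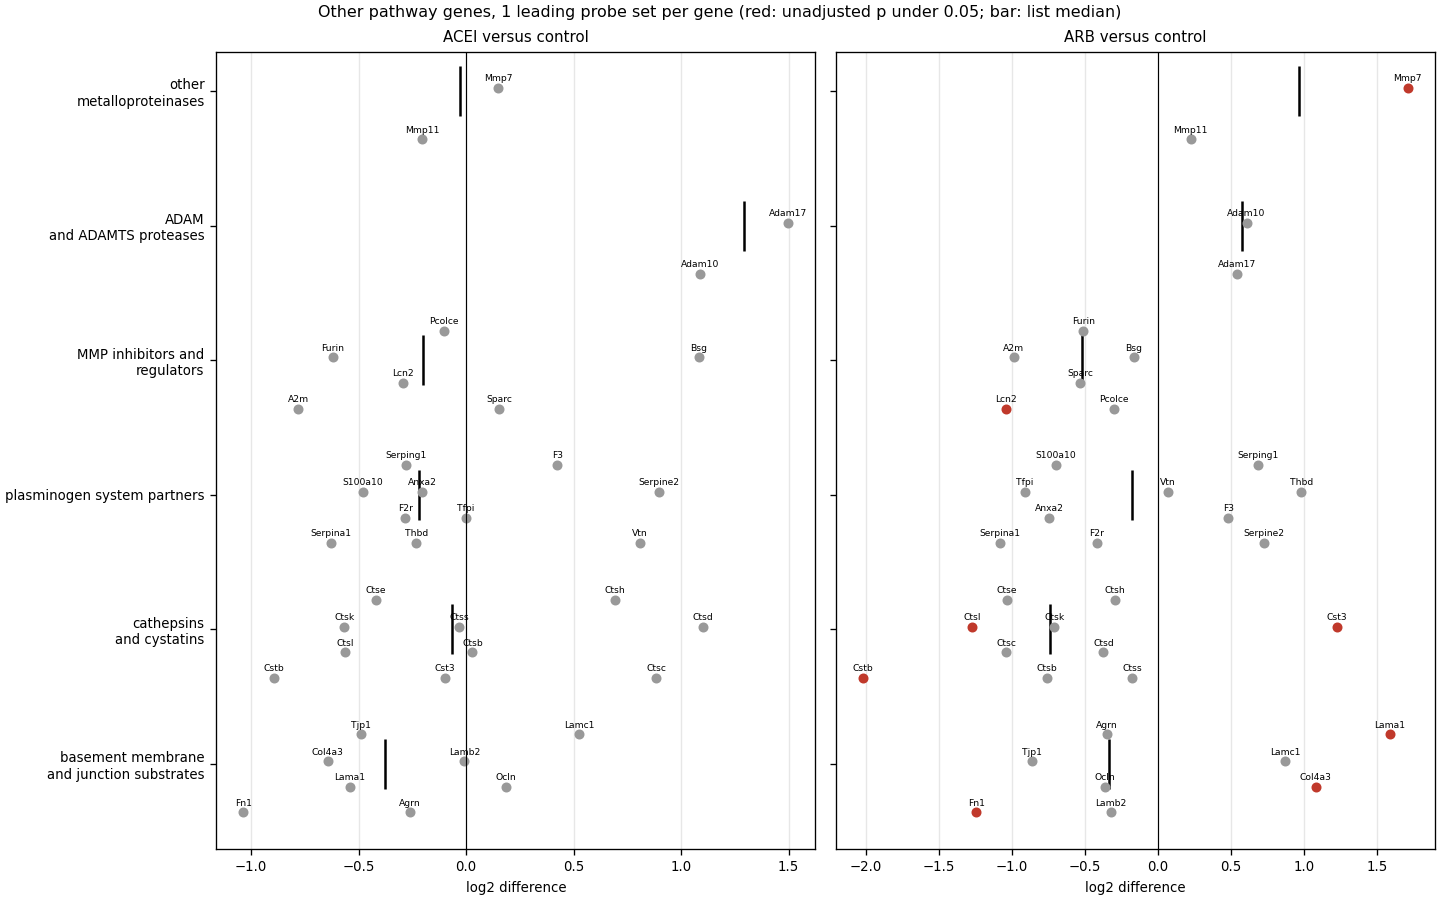
Log2 difference (x axis) of the 38 other genes of matrix proteolysis, 1 leading probe set per gene, by list (rows), for ACEI (left) and ARB (right) against control. Red marks an unadjusted p under 0.05 and the vertical bar the list median. No point is red for ACEI, and 8 are red for ARB.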

How the data were processed

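RNA of 6 samples was measured on Affymetrix RG_U34A arrays. The deposited table holds 1 intensity per probe set and array, on a linear scale with none below 0 and no detection calls; the authors' software and background correction are not given in the sources used here. Each array's deposited intensities had a trimmed mean between 996.7 and 1001, so no further normalization was applied. Run day, chip lot and fluidics protocol come from the deposited run settings, per the file headers. Run day was set from the year of the hybridization date alone.

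Genes come from the annotation table (7018 probe sets with 1 symbol, 308 with several, 1473 with none). The 59 control probe sets were left out, leaving 8740. Intensities were taken as log2 of the value plus 90, the median of values above 0 (358.3) divided by 4 and rounded. The lowest 40% by mean were left out (5244 tested). The group means were estimated by lmFit and eBayes (limma 3.58.1, R 4.3.3), giving moderated two-sided p-values (3 residual and 5.49 prior degrees of freedom) and Benjamini-Hochberg adjustment; 95% intervals used the same degrees of freedom. The fit was tested on simulated data. A gene's leading probe set is that with the highest mean. Named genes were all members, list genes at an unadjusted p under 0.05 in any contrast or among the 4 largest differences per list, and the 5 most similar genes. Alternatives were other offsets, filters and normalizations, blocks for replicate number and run day, the later run day alone, the mean of a gene's probe sets, and leaving out each array. Promoters come from RefSeq (GRCr8). Members and lists were chosen with earlier results of these data known. Python 3.11.15, pandas 2.3.3 and matplotlib 3.10.9 made tables and figures.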

Additional observations from a re-analysis of the deposited data

Results flagged for a closer look

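Mmp3 lay below both controls on each ACEI array and above both on each ARB array. This opposite direction was not tested in the reported fit, where Mmp3 was below the filter; with no filter ARB minus ACEI was 1.76 ± 0.41 on the log2 scale (adjusted p = 0.107 in limma). On the ARB arrays the Mmp3 intensities of 549 and 416 stood beside 545 and 523 for the highest foreign-transcript control. On the ACEI arrays Mmp3 read 126 and 40.5, below that control at 168 and 61.1.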

How the results depend on the processing

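Of the 40 log2 differences of member probe sets, 24 were recomputed under 15 alternatives and 16 under 14, since leaving out the lowest 60% removed Plau, Plaur and the second probe sets of Timp1 and Mmp2. Timp1 and Mmp2 were also taken as the mean of both probe sets. Of 592 values, 545 kept direction and side of the threshold, 45 had the opposite sign and 2 passed the threshold; the cause was not tested. Against control, 88 of 90 Timp1 values kept both, and the other 2, from the fit without control 1, passed (values in the Timp1 account). With 1 array left in a group, that array is assumed to vary like the others. Replicate numbers were not shown to pair the arrays: differences of replicate 1 minus 2 correlated at 0.0453 (control and ACEI), -0.0153 (control and ARB) and -0.00374 (ACEI and ARB), and the fluidics protocol coincides with the number.

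Probe sets called over all genes, 0 as reported, numbered 3 for RAS blockade, 3 for ACEI, 4 for ARB and 4 for ARB versus ACEI with an offset equal to the median, and 3, 2, 4 and 1 with the replicate block. For RAS blockade there was 1 after quantile and 1 after cyclic loess normalization. Leaving out 1 array gave 0 to 60 for RAS blockade and 0 to 261 for ACEI (the highest without control 1), 0 to 46 for ARB (the highest without control 2) and 0 to 305 for ARB versus ACEI (305 without either control array). Member probe sets at an unadjusted p under 0.05 numbered 1 for ACEI and 1 for ARB with the lowest 60% left out. For ARB versus ACEI they numbered 2 with no filter, and 0 after quantile, 0 after cyclic loess and 0 with the replicate block. Leaving out 1 array gave 1 to 3 for RAS blockade, 0 to 3 for ACEI, 1 to 3 for ARB and 0 to 1 for ARB versus ACEI.

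Signs turned as follows. On the later run day alone Timp2 was at -0.023 for RAS blockade and -0.080 for ACEI, and for ARB Timp3 was at 1.31 and Plaur at 0.13. With run day as a block, for ARB, Timp3 was at 0.85, Mmp2 at 0.052 and its other probe set at 0.033; for ARB versus ACEI, Timp3 was at 0.37 and the other Timp1 probe set at -0.12. Timp3 for RAS blockade was at -0.012 with an offset equal to the median and -0.13 after quantile normalization. Plau for ARB was at -0.18 after quantile and -0.23 after cyclic loess normalization. For ARB versus ACEI Mmp2 was at -0.044 after quantile normalization, and its other probe set at -0.047 after quantile and -0.058 after cyclic loess normalization.

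Leaving out 1 array turned signs for RAS blockade within -0.0095 to 0.27 for Timp2, -1.40 to 1.66 for Timp3, -0.59 to 0.21 for Mmp2, -0.91 to 0.0081 for its other probe set, -0.43 to 0.79 for Mmp14 and -0.34 to 0.15 for Plau. For ACEI the ranges were -0.053 to 0.22 for Timp2, -1.05 to 2.00 for Timp3, -0.76 to 0.10 for Mmp2 and -0.70 to 0.60 for Mmp14. For ARB they were -1.74 to 1.31 for Timp3, -0.85 to 0.74 for Mmp2, -1.11 to 0.72 for its other probe set, -0.20 to 1.02 for Mmp14, -0.066 to 0.90 for Plau and -1.41 to 0.13 for Plaur. For ARB versus ACEI they were -0.67 to 1.33 for Timp1, -0.048 to 0.22 for Timp2, -0.53 to 1.06 for Mmp2, -0.41 to 1.42 for its other probe set and -0.19 to 1.11 for Mmp14. The number of arrays limits the precision, and signal near that of foreign-transcript controls also limits Mmp3, Mmp9, Plau, Plaur, Mmp2 and the second Timp1 probe set, each of which lay below the highest such control on 1 to 3 arrays.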
